A study of Mus musculus with 7 samples.

Results

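The genes described here are 5 matrix metalloproteinases, Mmp7, Mmp2, Mmp11, Mmp14 and Mmp15, and 3 tissue inhibitors of metalloproteinases, Timp1, Timp2 and Timp3. They were taken by symbol from a deposited table of 24353 genes, in which all 8 are listed, and all 8 were among the 12314 genes tested. Each library came from cells labelled as endometrial epithelium of C57BL/6 female mice that had been oophorectomized at 6 to 7 weeks of age, so every group, the vehicle group included, lacks ovarian hormones. The tamoxifen plus alpelisib group (2 libraries) received tamoxifen at 0.5 mg/day and alpelisib at 30 mg/kg/day, the tamoxifen group (2 libraries) received the same dose of tamoxifen alone, the estradiol group (2 libraries) carried a pellet of 0.01 mg estradiol made to release over 60 days, and the vehicle group (1 library) received vehicle. All were treated over 28 days. The sources give 18 mice randomized at 6 per arm and, separately, 2 estradiol mice. Comparisons with estradiol may therefore not be between randomized arms. Tamoxifen is an estrogen receptor modulator with partial estrogen-like activity in uterine tissue. Alpelisib is a drug that blocks the PI3K alpha kinase. The labels number the mice of the other groups and give no number for the vehicle library, and the sources used here do not say whether that library came from 1 mouse or from a pool.

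Matrix metalloproteinases are zinc endopeptidases that cut proteins of the extracellular matrix and the cell surface. They are made as inactive precursors, some secreted and some anchored in the membrane, and TIMPs block them by binding the catalytic site. In the uterus these enzymes take part in tissue remodelling over the reproductive cycle and around implantation. Matrilysin, the product of Mmp7, is a small secreted enzyme made mainly by epithelia. MMP14 and MMP15 are membrane-anchored, and MMP14 together with TIMP2 activates the secreted gelatinase MMP2.

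Levels are given in FPKM, which divides the fragments of a gene by its transcript length and by the depth of the library, so that genes can be set side by side. Total depth is not stated. Low values of 5704 genes with a single annotated transcript fall in steps, and the lowest step, read as 1 fragment, puts 6 libraries at about 16100000 to 18700000 fragments, whereas estradiol 2 shows no clear lowest step. The table summed to between 264322 and 403562 FPKM per library, and 10109 to 11167 genes reached 1 FPKM. Epithelial identity was checked with 10 markers. Epcam lay between 202 and 289 FPKM, and Krt8 between 769 and 2295. Transcripts of other cells were present as well, among them the fibroblast proteoglycan gene Dcn at 30.9 to 144 FPKM. The ribosomal RNA precursor Rn45s stood at 764 and 2276 FPKM in the estradiol libraries and at 189 to 530.4 in the other 5.

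The promoters of Mmp7 and Timp3 are printed because these genes had the widest range of group means among the proteases and among the inhibitors. They come from RefSeq (GRCm38.p6), run 5′ to 3′ on the gene's strand, and hold 250 bases before and 50 bases from the gene start. The only build named for the deposited table is a human one, so the coordinates locate the printed sequence and not the reads. The Mmp7 window is chr9:7691840-7692139 on the plus strand, with an AP-1 motif (TGANTCA) in capitals, and the Timp3 window is chr10:86300162-86300461 on the plus strand, with the GC boxes (GGGCGG on either strand) in capitals.
Mmp7: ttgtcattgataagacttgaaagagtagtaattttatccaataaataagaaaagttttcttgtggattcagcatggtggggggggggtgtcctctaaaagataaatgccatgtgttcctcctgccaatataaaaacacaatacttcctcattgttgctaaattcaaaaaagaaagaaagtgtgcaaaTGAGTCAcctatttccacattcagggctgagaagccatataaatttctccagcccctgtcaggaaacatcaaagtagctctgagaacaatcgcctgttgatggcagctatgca
Timp3: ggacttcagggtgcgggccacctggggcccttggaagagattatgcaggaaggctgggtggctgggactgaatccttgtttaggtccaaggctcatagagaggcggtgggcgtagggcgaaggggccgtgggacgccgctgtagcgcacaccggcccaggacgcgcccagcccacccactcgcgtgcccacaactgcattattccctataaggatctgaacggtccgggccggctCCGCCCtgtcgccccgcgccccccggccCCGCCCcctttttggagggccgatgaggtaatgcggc

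Both strands were searched. The AP-1 motif of Mmp7 begins 63 bases before the gene start, and TATA motifs (TATAAA) begin 26 and 123 bases before it. Mmp7 was the 1 member of the 7 with an entry in the promoter table that held either motif. AP-1 matches occurred in 7.81% of 32851 promoters of the same length and TATA matches in 13.6%. The GC box occurred in the other 6, without overlap with the other motifs in the Timp3 window, and in 35.7% of all promoters. The full palindromic estrogen response element was in 0 of the 7 and in 0.07% of all promoters. These are matches of letters, and Mmp2 has no entry.

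Mmp7 was low in the vehicle library and high in all others. It stood at 144 and 162 FPKM with tamoxifen plus alpelisib, at 54.9 and 78.1 with tamoxifen, at 64.8 and 39.1 with estradiol, and at 0.881 in the vehicle library. The libraries of tamoxifen plus alpelisib were above all others, those of tamoxifen and estradiol overlapped, and vehicle lay far below. In these bulk libraries fewer cells of a type and less RNA per cell cannot be told apart. Among all genes ordered by level within a library, Mmp7 took places 388 and 364 with tamoxifen plus alpelisib and place 10895 in vehicle. An antisense gene, AV064505, overlaps Mmp7 in the GENCODE M21 annotation and is listed at 0 in all 7 libraries.

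The membrane-anchored enzymes followed another order. Mmp14 had 24.2 and 24.6 FPKM with tamoxifen plus alpelisib, 45.8 and 30.3 with tamoxifen, 87.6 and 165 with estradiol, and 38.2 in vehicle. Both estradiol libraries were highest, though far apart from each other, while the tamoxifen libraries lay on either side of vehicle. Mmp15 had 8.14 and 7.59 FPKM with tamoxifen plus alpelisib, 11.3 and 9.82 with tamoxifen, 16.7 and 18.6 with estradiol, and 11.6 in vehicle. Its groups did not overlap, and their order was the same as for the means of Mmp14. For tamoxifen plus alpelisib against tamoxifen, such a lack of overlap was common, with 30.2% of tested genes higher and 34.3% lower in both libraries. The share is not given for the other pairs, so the lack of overlap is no result about Mmp15.

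The secreted gelatinase gene Mmp2 had 2.09 and 2.04 FPKM with tamoxifen plus alpelisib, 1.60 and 1.45 with tamoxifen, 8.02 and 10.2 with estradiol, and 5.30 in vehicle. Mmp11, which encodes stromelysin-3, an enzyme that furin-type convertases activate inside the cell, had 0.509 and 0.499 FPKM with tamoxifen plus alpelisib, 0.319 and 0.674 with tamoxifen, 2.95 and 3.16 with estradiol, and 1.46 in vehicle. For both genes estradiol was highest, vehicle next, and the tamoxifen-treated groups lowest. Mmp11 passed the filter of 1 FPKM through its estradiol and vehicle libraries. It overlaps Chchd10 on the other strand in the GENCODE M21 annotation, Chchd10 stood at 30.0 to 102 FPKM, and no strand setting is stated for the counting, so reads of the pair may not be fully separated.

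The inhibitors were lowest with tamoxifen and differed in where they were highest. Timp3, whose product binds to the matrix and also inhibits several ADAM and ADAMTS proteases, had 1.91 and 2.16 FPKM with tamoxifen plus alpelisib, 1.80 and 1.81 with tamoxifen, 5.11 and 5.01 with estradiol, and 127 in vehicle. The vehicle library was far above the other 6, in which Timp3 was low. Timp3 lies within Syn3 on the opposite strand in the annotation, and Syn3 did not exceed 0.746 FPKM in any library.

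Timp2 had 4.84 and 4.12 FPKM with tamoxifen plus alpelisib, 1.93 and 1.85 with tamoxifen, 11.5 and 9.73 with estradiol, and 23.0 in vehicle. No 2 groups overlapped, which is no result about Timp2. In tamoxifen plus alpelisib against tamoxifen, 30.2% of tested genes were higher and 34.3% lower without overlap, and the share is not given for other pairs. Cep295nl overlaps Timp2 on the same strand in the annotation, and no level is given for it here, so reads of the pair may not be fully separated. Timp1, the soluble inhibitor that inflammatory stimuli often induce, had 1.85 and 2.21 FPKM with tamoxifen plus alpelisib, 0.851 and 1.71 with tamoxifen, 5.31 and 3.52 with estradiol, and 2.56 in vehicle. It was lowest with tamoxifen and highest with estradiol, and it did not exceed 5.31 FPKM. Syn1, which overlaps Timp1 on the other strand, did not exceed 0.0883 FPKM.

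**Figure D1:**
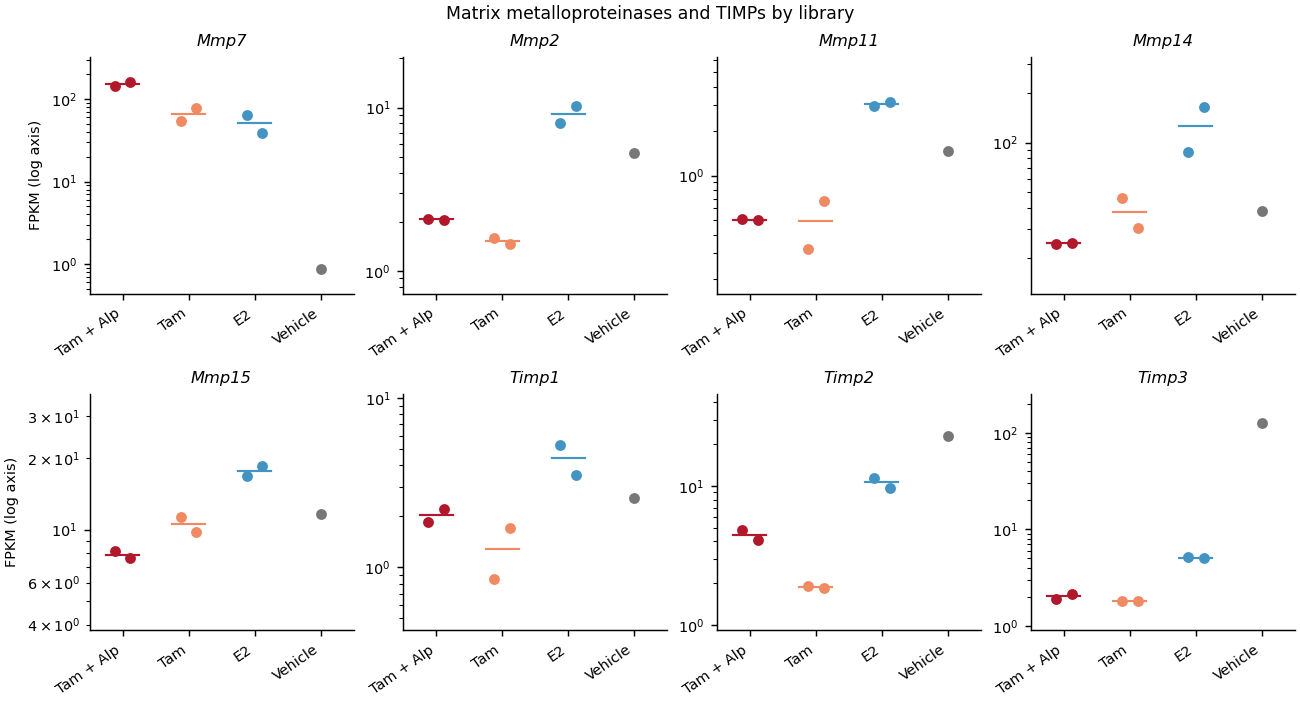
FPKM of each member (log axis) by group, 1 point per library, with a bar at the mean of the groups of 2. Mmp7 lies at 0.881 in vehicle and between 39.1 and 162 in the other 6 libraries, whereas Timp3 lies at 127 in vehicle and between 1.80 and 5.11 in the others.

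Summed over the members, the 5 metalloproteinases had 179 and 197 FPKM with tamoxifen plus alpelisib, 114 and 120.3 with tamoxifen, 180.1 and 237 with estradiol, and 57.4 in vehicle. The 3 TIMPs summed to 8.60 and 8.49 FPKM with tamoxifen plus alpelisib, 4.58 and 5.37 with tamoxifen, 21.9 and 18.3 with estradiol, and 153 in vehicle. Vehicle was thus the 1 library in which TIMP transcripts exceeded those of the 5 proteases, with a protease to TIMP ratio of 0.375 against 8.21 to 24.8 in the others. The makeup of the sums differed too. Mmp7 gave 80.5% and 82.3% of the protease sum with tamoxifen plus alpelisib, 48.2% and 64.9% with tamoxifen, 36.0% and 16.6% with estradiol, and 1.53% in vehicle. Mmp14 was the largest protease term in both estradiol libraries and in vehicle, and Timp3 gave 83.3% of the TIMP sum in vehicle, while Timp2 was the largest TIMP term in the other 6 libraries. These sums describe transcripts and carry no test.

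**Figure D2:**
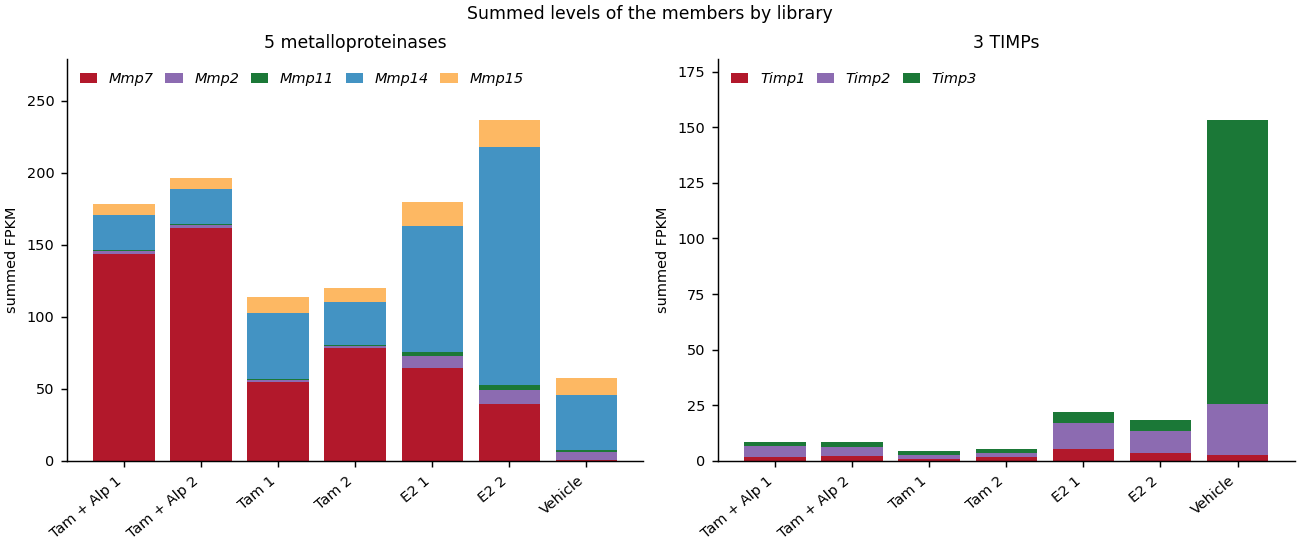
Summed FPKM of the 5 metalloproteinases (left) and the 3 TIMPs (right) in each library, stacked by gene. The vehicle library has the lowest protease sum (57.4) and the highest TIMP sum (153), most of it Timp3.

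Tamoxifen plus alpelisib against tamoxifen asks what PI3K alpha inhibition changes in the tamoxifen-exposed epithelium. Mmp7 rose (153 ± 12.8 FPKM with tamoxifen plus alpelisib and 66.5 ± 16.4 with tamoxifen, SD, n = 2 each), by 1.21 ± 0.28 on the log2(FPKM + 1) scale (SE, adjusted p = 0.0429). Timp2 rose as well (4.48 ± 0.508 FPKM with tamoxifen plus alpelisib and 1.89 ± 0.0561 with tamoxifen, SD, n = 2 each), by 0.92 ± 0.14 (adjusted p = 0.0142). These were 2 of the 8 members, both higher, where 6.93% of all genes tested were called higher and 4.81% lower (11.7% in all). The median log2 fold change was 0.20 over the members and -0.03 over all genes. The other 6 did not pass. The log2 fold changes of Mmp14 and Mmp15 were -0.59 (95% interval -1.39 to 0.21, adjusted p = 0.295) and -0.38 (-0.70 to -0.05, adjusted p = 0.124). For Timp3 the value was 0.11 (-0.18 to 0.41), for Mmp11 0.02 (-0.36 to 0.39), for Mmp2 0.28 (-0.08 to 0.64) and for Timp1 0.43 (-0.15 to 1.02). Both calls ended when any 1 of the 4 libraries was left out, with adjusted p between 0.0684 and 0.262 for Mmp7 and between 0.0600 and 0.153 for Timp2, although the log2 fold changes stayed between 0.96 and 1.46 and between 0.83 and 1.01. The Mmp7 call also ended with no filter on low values (adjusted p = 0.113).

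Tamoxifen against vehicle asks what the drug does without ovarian estrogen. Mmp7 rose, by 5.14 ± 0.34 on the log2(FPKM + 1) scale (adjusted p = 0.000206), a ratio of mean FPKM of 75.5. Timp3 fell (-5.52 ± 0.15, adjusted p = 2.06e-05), and its mean FPKM was 70.5 times lower. Timp2 fell too (-3.06 ± 0.17, adjusted p = 0.000117), as did Mmp2 (-1.32 ± 0.18, adjusted p = 0.00258) and Mmp11 (-0.73 ± 0.19, adjusted p = 0.0248). Thus 1 of 8 members was called higher and 4 lower, where 14.9% and 24.1% of all genes were (39% together), and the median was -0.70 over the members and -0.12 over all genes. Timp1 did not pass (-0.67, 95% interval -1.39 to 0.05, adjusted p = 0.121). The values of the membrane-anchored enzymes were -0.03 (-1.01 to 0.94) for Mmp14 and -0.13 (-0.53 to 0.27) for Mmp15, and with median-of-ratios scaling both took the other sign, at 0.15 and 0.05. The Mmp11 call ended without tamoxifen 1 (adjusted p = 0.0779), without either library of tamoxifen plus alpelisib (0.0625 and 0.0624) and with only the compared groups in the fit (0.0606). This comparison and the next ones against vehicle share the same single vehicle library, which has no spread of its own, so they are not independent of each other.

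Tamoxifen plus alpelisib against vehicle gave the same 5 genes past the threshold. Mmp7 rose by 6.35 ± 0.34 (adjusted p = 0.000116), and its mean FPKM was 174 times higher. Timp3 fell (-5.40 ± 0.15, adjusted p = 3.26e-05), as did Timp2 (-2.14 ± 0.17, adjusted p = 0.000456), Mmp2 (-1.04 ± 0.18, adjusted p = 0.00725) and Mmp11 (-0.71 ± 0.19, adjusted p = 0.0300). The background here was 13.1% of genes called higher and 21.8% lower (34.9% together), and the median was -0.67 over the members and -0.15 over all genes. Mmp15 lay just beyond the threshold (-0.51 ± 0.16, adjusted p = 0.0564) and passed without estradiol 1 or 2 (0.0474 and 0.0485) and with only the compared groups fitted (0.0151). Mmp14 had -0.63 ± 0.40 (adjusted p = 0.276) and passed in that last fit (0.00466), and Timp1 had -0.24 (95% interval -0.95 to 0.48). The Mmp11 call ended without either library of tamoxifen plus alpelisib (0.124 for each).

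Estradiol against vehicle asks what the natural hormone does to the same epithelium. All 5 metalloproteinase genes rose. The log2 fold change of Mmp7 was 4.77 ± 0.34 (adjusted p = 0.000599), that of Mmp14 1.63 ± 0.40 (adjusted p = 0.0241), that of Mmp11 0.72 ± 0.19 (adjusted p = 0.0290), that of Mmp2 0.67 ± 0.18 (adjusted p = 0.0314) and that of Mmp15 0.57 ± 0.16 (adjusted p = 0.0398). Timp3 fell (-4.41 ± 0.15, adjusted p = 0.000310) and so did Timp2 (-1.05 ± 0.17, adjusted p = 0.00659), while Timp1 had 0.58 (95% interval -0.13 to 1.30, adjusted p = 0.170). That made 5 members higher and 2 lower, against 22.7% and 12.8% of all genes (35.5% together), with a median of 0.63 over the members and 0.12 over all genes. The calls of Mmp2, Mmp11, Mmp14 and Mmp15 were less firm than those of Mmp7 and Timp3. They ended without either library of tamoxifen plus alpelisib, with adjusted p between 0.0550 and 0.107, and with only the compared groups fitted, with adjusted p between 0.0786 and 0.192. Those of Mmp2, Mmp11 and Mmp15 also ended with median-of-ratios scaling (0.0964, 0.0541 and 0.148), those of Mmp2 and Mmp14 with no filter on low values (0.0556 and 0.0698), that of Mmp11 with a pseudocount of 0.1 (0.107), and that of Timp2 with only the compared groups fitted (0.0582). Without estradiol 2, the library with no clear lowest step and the most Rn45s, the calls of Mmp2, Mmp11 and Mmp15 ended (adjusted p of 0.0570, 0.0647 and 0.0845). Mmp14 still passed without it, at 1.177 on the log2 scale (adjusted p = 0.049).

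**Figure D3:**
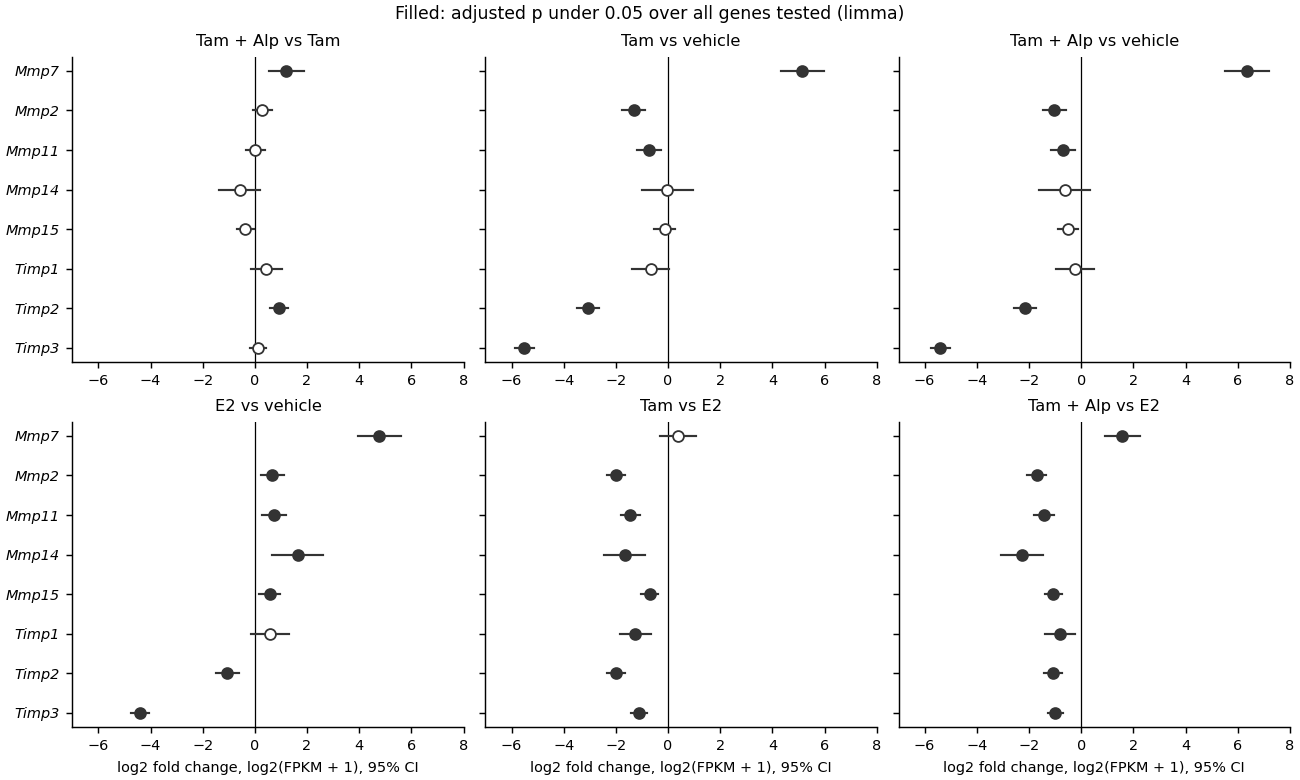
Log2 fold change of each member on the log2(FPKM + 1) scale with its 95% interval, in the 6 comparisons, with filled points where the adjusted p over all genes was under 0.05. Mmp7 and Timp3 lie far apart in the 3 comparisons with vehicle (5.14 and -5.52 for tamoxifen), and 7 of the 8 members lie below 0 and pass in tamoxifen against estradiol.

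Tamoxifen against estradiol compares the partial agonist with the hormone. Here 7 of the 8 members fell, Mmp7 being the exception, where 36.2% of all genes were called lower and 12.3% higher (48.5% together). The falls were -2.005 ± 0.14 for Timp2, -1.99 ± 0.15 for Mmp2, -1.67 ± 0.33 for Mmp14, -1.45 ± 0.15 for Mmp11, -1.25 ± 0.24 for Timp1, -1.11 ± 0.12 for Timp3 and -0.69 ± 0.13 for Mmp15, with adjusted p from 0.000269 to 0.00795. The median was -1.35 over the members and -0.26 over all genes, so each value is to be read against that shift. With median-of-ratios scaling, which moved that median to 0.01, Mmp15 no longer passed (-0.36, adjusted p = 0.110). Mmp7 had 66.5 ± 16.4 FPKM with tamoxifen and 52.0 ± 18.1 with estradiol (SD, n = 2 each), which is 0.37 on the log2 scale (95% interval -0.31 to 1.05, adjusted p = 0.312), and under that scaling it passed as higher (0.73, adjusted p = 0.0402).

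Tamoxifen plus alpelisib against estradiol called all 8 members, where 15.7% of all genes were called higher and 37.5% lower (53.2% together). The median was -1.08 over the members and -0.26 over all genes. Mmp7 was the 1 member higher, by 1.58 ± 0.28 (adjusted p = 0.00447). Mmp14 fell most (-2.26 ± 0.33, adjusted p = 0.00219), and then Mmp2 (-1.71 ± 0.15), Mmp11 (-1.43 ± 0.15), Timp2 (-1.08 ± 0.14), Mmp15 (-1.07 ± 0.13) and Timp3 (-0.999 ± 0.12), with adjusted p from 0.000378 to 0.00148. Timp1 fell by 0.82 on the log2 scale (SE 0.24, adjusted p = 0.0291), a call that ended with median-of-ratios scaling (0.0743), with no filter (0.0831), without estradiol 1 (0.124) and without either library of tamoxifen plus alpelisib (0.141 and 0.0849). This comparison and the previous one share the estradiol libraries.

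Across the whole table, the scaling of the libraries moved the balance of calls, though not the direction of any called member. For tamoxifen against vehicle 1838 genes were called higher and 2969 lower, and with median-of-ratios scaling 2498 and 2525. The same pairs were 1619 and 2680 against 2226 and 2122 for tamoxifen plus alpelisib against vehicle, and 2793 and 1573 against 2109 and 2249 for estradiol against vehicle. For tamoxifen against estradiol they were 1519 and 4458 against 2949 and 2685, and for tamoxifen plus alpelisib against estradiol 1935 and 4613 against 3361 and 3026. Over all genes, the median log2 value, near 0 with that scaling, was -0.12, -0.15 and 0.12 in the 3 comparisons with vehicle as listed.

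Of the 18 other metalloproteinase genes, 6 reached 1 FPKM, and Mmp1a, Mmp1b and Mmp21 are listed at 0 in every library. Mmp23, a membrane-bound metalloproteinase, was the most abundant of them, at 25.9 and 26.6 FPKM with tamoxifen plus alpelisib, 31.0 and 30.9 with tamoxifen, 29.1 and 27.2 with estradiol, and 8.61 in vehicle. It rose in each comparison with vehicle, by 1.502 ± 0.15 with tamoxifen plus alpelisib, 1.73 ± 0.15 with tamoxifen and 1.60 ± 0.15 with estradiol, and all 6 treated libraries were above the vehicle library. Mmp10, a stromelysin gene, fell in each of these comparisons, by 1.51 on the log2 scale with tamoxifen (SE 0.27), and had 2.18 FPKM in vehicle and 1 FPKM or more in 1 other library, estradiol 1. In tamoxifen plus alpelisib against tamoxifen limma called 0 of the 6, where 11.7% of all genes were called, and 0 had an unadjusted p under 0.05. Apart from Mmp23, these genes did not exceed 0.641 FPKM in the libraries compared. At such levels the log2(FPKM + 1) scale leaves little room for a call, so the count is no result about them. The 4 genes besides Mmp23 and Mmp10 reached 1 FPKM only in the group where they were high. Their differences were fixed in part by the filter and are given as levels. The stromelysin gene Mmp3 and the broad-spectrum enzyme gene Mmp19 had 2.21 and 3.34 FPKM in vehicle and did not exceed 0.267 and 0.641 in the other 6 libraries. Mmp12, the macrophage elastase gene, had 1.11 and 0.905 FPKM with estradiol and 0.110 in vehicle, and did not exceed 0.0173 in the libraries with tamoxifen. Mmp28, the epilysin gene, had 1.02 and 1.48 FPKM with estradiol and did not exceed 0.207 elsewhere. Of 7 other inhibitors, among them Timp4 and Reck, 1 reached 1 FPKM, the testican gene Spock2, which fell with tamoxifen against vehicle (-1.01 ± 0.22, adjusted p = 0.0129) and rose with estradiol (0.75 ± 0.22, adjusted p = 0.0395).

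The plasminogen activators and their partners, which can start the activation of several metalloproteinases, were higher where alpelisib was added to tamoxifen. Of the 14 genes of activation and clearance, 13 were tested, and 4 rose and 0 fell in tamoxifen plus alpelisib against tamoxifen, where 6.93% of all genes rose and 4.81% fell (median 0.36, all genes -0.03). The urokinase gene Plau had 47.1 and 45.2 FPKM with tamoxifen plus alpelisib, 7.71 and 11.8 with tamoxifen, 17.1 and 13.7 with estradiol, and 18.8 in vehicle, and rose with alpelisib by 2.16 ± 0.21 (adjusted p = 0.00487). Its receptor gene Plaur had 120.1 and 136 FPKM with tamoxifen plus alpelisib, 14.9 and 30.3 with tamoxifen, 11.0 and 5.19 with estradiol, and 232 in vehicle. The alpelisib increase of Plaur was 2.53 ± 0.41 (adjusted p = 0.0162), and vehicle lay above every treated library. Plat, the tissue-type activator gene, rose by 1.30 ± 0.25 (adjusted p = 0.0267), and the fourth was the inhibitor gene Serpinb2. Serpinb2 had 2.19 and 2.62 FPKM with tamoxifen plus alpelisib and at most 0.630 elsewhere, so it passed the filter only through the group where it was high, and its call is no support for the count. Pcsk6, a furin-like convertase gene, rose with tamoxifen against vehicle by 3.23 ± 0.16 (adjusted p = 8.38e-05). In that comparison 2 of the 13 rose and 5 fell, among them Plat (-3.98 ± 0.31) and Plaur (-3.38 ± 0.50), where 14.9% of all genes rose and 24.1% fell. The median was 0.16 over the list and -0.12 over all genes. Calls of single genes outside the 8 members were not rechecked under other settings or with a library left out. In tamoxifen plus alpelisib against tamoxifen, both member calls ended when a library was left out.

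**Figure D4:**
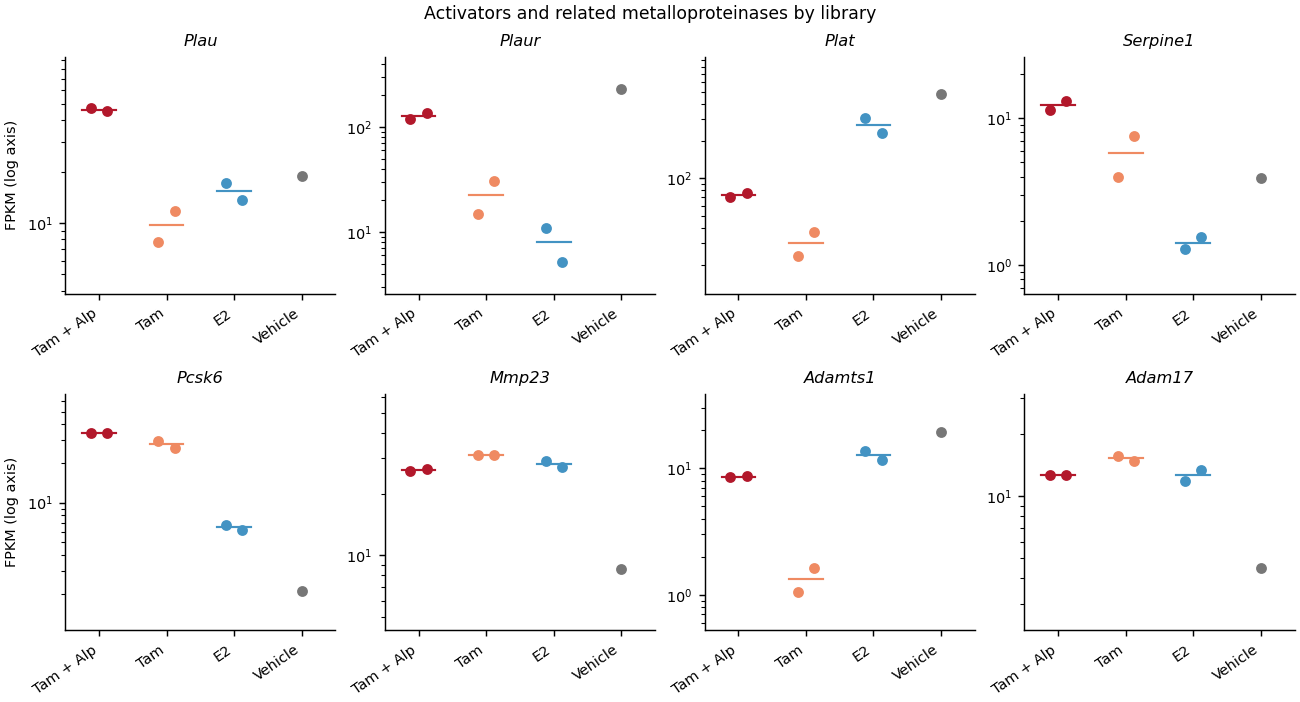
FPKM (log axis) by group for plasminogen activator, convertase and related metalloproteinase genes, 1 point per library, with a bar at the mean of the groups of 2. Plau and Plaur are higher in both tamoxifen plus alpelisib libraries (45.2 to 47.1 and 120.1 to 136) than in both tamoxifen libraries, and Mmp23 and Adam17 are lowest in vehicle.

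Among 14 ADAM and ADAMTS genes, several of whose products TIMP3 inhibits, 9 were tested. With tamoxifen against vehicle 3 rose and 2 fell, beside 14.9% and 24.1% of all genes (median 0.30, all genes -0.12). Adam17, the gene of the tumour necrosis factor converting enzyme, had 12.8 and 12.6 FPKM with tamoxifen plus alpelisib, 15.8 and 14.9 with tamoxifen, 11.8 and 13.4 with estradiol, and 4.46 in vehicle, and rose against vehicle by 1.33 ± 0.16 with tamoxifen plus alpelisib, 1.58 ± 0.16 with tamoxifen and 1.32 ± 0.16 with estradiol. Adamts1, a gene of a secreted proteoglycan-cutting protease, had 8.54 and 8.65 FPKM with tamoxifen plus alpelisib, 1.05 and 1.63 with tamoxifen, 13.8 and 11.7 with estradiol, and 19.4 in vehicle. It rose in tamoxifen plus alpelisib against tamoxifen (2.05 ± 0.17, adjusted p = 0.00355), where it and Adam8 were the 2 of 9 that passed, both higher. In that comparison 6.93% of all genes rose and 4.81% fell (median -0.23, all genes -0.03). The groups of Adamts1 stood in the same order of means as those of Timp2, vehicle highest and tamoxifen lowest.

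Markers of other cells moved with some of the members. The 12 stromal fibroblast markers summed to 183 and 189 FPKM with tamoxifen plus alpelisib, 125 and 119 with tamoxifen, 249.8 and 245 with estradiol, and 299 in vehicle, the same order of group means as for Timp2 and Timp3. With tamoxifen against vehicle 10 of the 11 tested fell and 1 rose, where 24.1% of all genes fell and 14.9% rose. Among those that fell, Pdgfra, Hand2 and Gli1 reached 1 FPKM only in the vehicle library. Their falls were fixed in part by the filter and are no support for the count. The 7 smooth muscle markers summed to 17.1 and 18.2 FPKM with tamoxifen plus alpelisib, 22.7 and 20.1 with tamoxifen, 9.68 and 6.95 with estradiol, and 74.5 in vehicle. The 8 endothelial markers summed to 1.14 and 1.03 FPKM with tamoxifen plus alpelisib, 2.06 and 1.63 with tamoxifen, 11.9 and 9.76 with estradiol, and 19.9 in vehicle. Vehicle was highest in all 3 sums, as it was for Timp2 and Timp3. In tamoxifen plus alpelisib against tamoxifen, where Timp2 rose, 3 of the 11 stromal markers tested rose (Dcn, Lum and Vim) and Dpt fell. Of the 7 smooth muscle markers 0 rose and 4 fell there, where 6.93% of all genes rose and 4.81% fell. Against the mean of the tamoxifen libraries the vehicle value was 70.5 times higher for Timp3 and 12.2 times for Timp2, 2.45 times for the stromal sum, 3.49 times for the smooth muscle sum and 10.8 times for the endothelial sum. Fbln1, the 1 stromal marker that rose, gave 69.5 and 64.2 FPKM of the stromal sum with tamoxifen and 38.4 in vehicle. Single markers lay on both sides of the value of their sum. Some differed more, with vehicle values 17.7 times higher for Dpt, 7.27 times for Vim, 27.2 times for Cdh5 and 25.9 times for Pecam1. Others differed less, among them the stromal genes Col1a1 (2.38 times) and Col1a2 (2.19 times) and the endothelial genes Kdr (3.16 times) and Emcn (3.95 times). The part of these cells in the members' values was not tested.

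The 8 macrophage markers summed to 132 and 131 FPKM with tamoxifen plus alpelisib, 54.2 and 69.2 with tamoxifen, 148 and 90.6 with estradiol, and 51.2 in vehicle. Cd14 alone gave 102 and 104 FPKM of that sum with tamoxifen plus alpelisib, and it was the 1 macrophage marker called against tamoxifen. The receptor gene Csf1r had 0.485 and 0.443 FPKM with tamoxifen plus alpelisib, 0.429 and 0.181 with tamoxifen, 4.27 and 4.19 with estradiol, and 0.523 in vehicle. The 8 neutrophil markers summed to 48.8 and 52.6 FPKM with tamoxifen plus alpelisib, 5.30 and 8.45 with tamoxifen, 9.13 and 4.56 with estradiol, and 0.557 in vehicle, nearly all of it S100a8, S100a9 and Ly6g. The neutrophil granule gene Elane is listed at 0 in all 7 libraries, Mpo reached 0.0242 at most and Camp 0.169. The erythroid sum was 292 and 312 with tamoxifen plus alpelisib, 1535 and 1116 with tamoxifen, 89.1 and 129.9 with estradiol, and 36.2 in vehicle, with near-identical globin copies that can share reads. The 10 epithelial markers summed to 6808 and 7378 FPKM with tamoxifen plus alpelisib, 4935 and 6624 with tamoxifen, 3354 and 2819 with estradiol, and 7543 in vehicle. The estradiol libraries were lowest in that sum, and the gland sum was 206 to 289 FPKM in the 4 libraries with tamoxifen, where Prss29 alone gave 191 to 277, against 16.0 to 22.5 in the others. Whether these shifts bear on Mmp7, Mmp2 or Mmp14 was not tested.

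**Figure D5:**
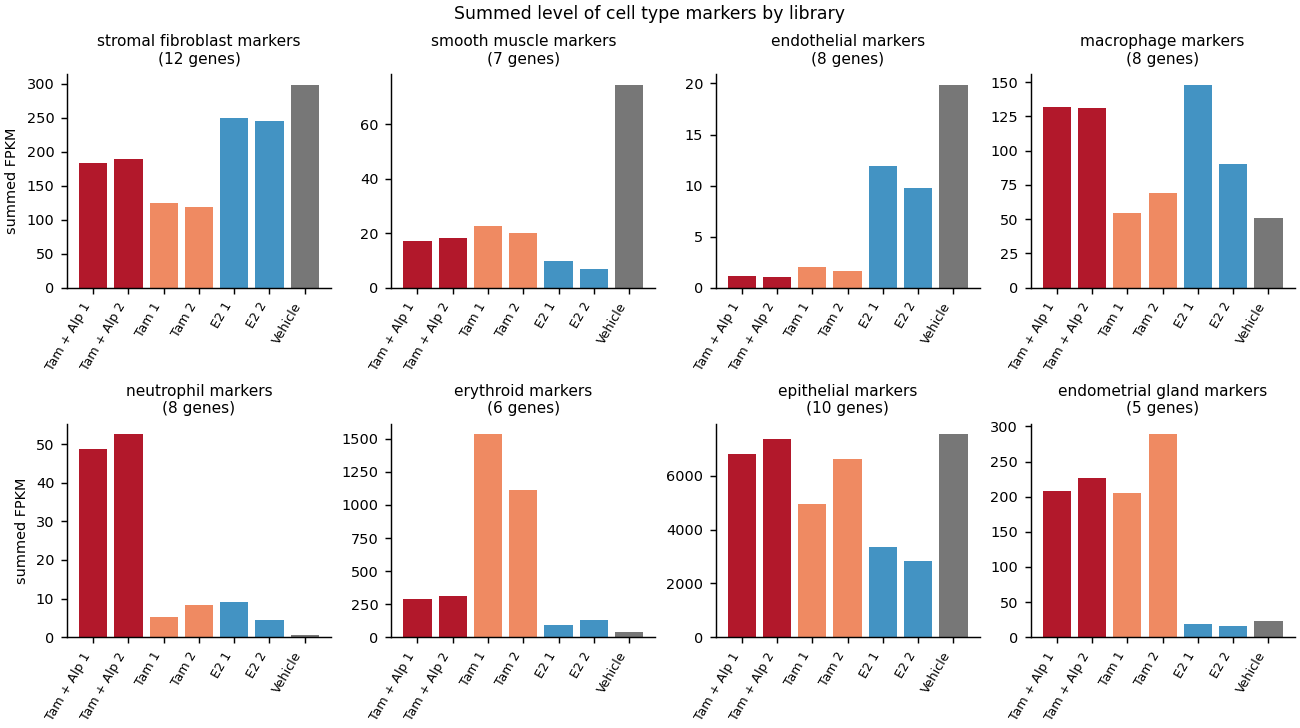
Summed FPKM of cell type markers in each library. Stromal, smooth muscle and endothelial sums are highest in vehicle (299, 74.5 and 19.9 FPKM), the neutrophil sum is highest with tamoxifen plus alpelisib (48.8 and 52.6), and the epithelial sum is lowest with estradiol (3354 and 2819).

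Genes with a pattern like each member's were found by the root mean square difference of log2(FPKM + 1), after centring each gene on the mean of its 4 group means, over the 7 libraries and 6441 candidate genes. Nearest to Mmp7 were Prap1 (0.52), Il1f6 (0.57) and Pglyrp1 (0.62), and Prap1 ran at 626 and 709.6 FPKM with tamoxifen plus alpelisib, 308 and 480.1 with tamoxifen, 175 and 102 with estradiol, and 11.7 in vehicle. Nearest to Timp3 were Pla2g10 (0.33), Efhd1 (0.43) and Mt3 (0.44), each highest in vehicle and at most 4.84 FPKM elsewhere. Timp2 ran closest to Prss23 (0.11), Mmp2 to Ptk7 (0.12) and Col6a1 (0.12), Mmp14 to Dync1h1 (0.14) and Mmp15 to Exoc3 (0.04). A small difference is easier to reach for a gene that varies little, and 7 libraries in 4 groups allow many genes to look alike.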

How the data were processed

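RNA of 7 libraries of mouse endometrial epithelium was sequenced, and 1 table of FPKM per gene was deposited. Per the submitters' processing notes, the authors used CASAVA, Bowtie and Cufflinks, listed without versions, and the only build named is hg19, although the symbols are those of mouse genes. The sources used here do not give a strand setting. FPKM values were analysed as log2(FPKM + 1), and fold changes on that scale understate changes of low genes. Of 24353 genes, 12314 reached 1 FPKM in at least 1 library and were tested, and 6155 are at 0 throughout. One limma fit (limma 3.58.1, R 4.3.3) over the 4 groups shared 1 estimate of spread (3 residual and 3.27 prior degrees of freedom), with the vehicle library assumed to vary like the others. P-values were two-sided and Benjamini-Hochberg adjusted over all tested genes, with calls under 0.05. The procedure was tested on simulated data with 200 changed genes, fewer than were called here in either comparison simulated. It recovered 0% of 1.5-fold and 2-fold changes in tamoxifen plus alpelisib against tamoxifen and in tamoxifen against vehicle. At 4-fold it recovered 94.5% and 85.0%. With fewer changed genes the adjustment is stricter, so these shares do not carry over to the comparisons here. A member that did not pass may still differ. The members and the lists were chosen with earlier results of these data known. All members were named. From each list of related genes, up to 4 per comparison with the lowest p among those called could be named, together with the 3 genes nearest to each member in pattern. Other genes, among them markers and overlapping genes, were named after their values were seen. Alternatives were median-of-ratios scaling, other filters, a pseudocount of 0.1, a fit of only the compared groups, a replicate block and leaving out each replicate.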

Additional observations from a re-analysis of the deposited data

How the results depend on the processing

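The precision is limited by 2 libraries per treated group and 1 vehicle library with no spread of its own. For tamoxifen plus alpelisib against tamoxifen, 2 members were called, 1 with no filter on low values, and between 0 and 2 when 1 library was left out. For estradiol against vehicle 7 were called, 4 with median-of-ratios scaling, 2 with only the compared groups fitted, and 3 to 7 with 1 library left out. With 1 library left out, 4 to 5 were called for tamoxifen against vehicle, 4 to 6 for tamoxifen plus alpelisib against vehicle, 7 for tamoxifen against estradiol and 7 to 8 for tamoxifen plus alpelisib against estradiol. Signs changed only for uncalled values: Mmp14 in tamoxifen against vehicle had 0.15 with median-of-ratios scaling and -0.33 to 0.26 with 1 library left out (0.26 without tamoxifen 2), Mmp15 there had 0.050 with that scaling, and Mmp11 in tamoxifen plus alpelisib against tamoxifen had -0.15 to 0.19 with 1 library left out (-0.15 without tamoxifen 1). The cause was not tested.

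Counts over all genes moved as well. For tamoxifen plus alpelisib against tamoxifen 1445 genes were called, 870 with no filter, and 18, 14, 301 and 692 without tamoxifen plus alpelisib 1, tamoxifen plus alpelisib 2, tamoxifen 1 and tamoxifen 2. For tamoxifen plus alpelisib against vehicle 4299 were called, 6985 with only the compared groups fitted, and 1900 and 1977 without tamoxifen plus alpelisib 1 and 2. For estradiol against vehicle the 4366 became 1597 with only the compared groups fitted, and 2808 and 2837 without those libraries. For tamoxifen plus alpelisib against estradiol the 6548 became 3871 and 3936 without them.

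With the replicate number as a block, 1 member was called for tamoxifen plus alpelisib against tamoxifen (603 genes in all), where Mmp7 no longer passed (adjusted p = 0.1001), 7 for tamoxifen against estradiol, and 7 for tamoxifen plus alpelisib against estradiol, where Timp1 no longer passed (adjusted p = 0.0505). The labels do not say that the numbers pair mice across groups. The correlation of replicate differences was 0.273 for tamoxifen plus alpelisib with tamoxifen. It was -0.182 for tamoxifen plus alpelisib with estradiol and -0.403 for tamoxifen with estradiol. With 1 difference per group, these values cannot decide whether the numbers pair the libraries. The vehicle library carries no number, so no paired fit was made for it.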
